A study of Macaca mulatta with 2 samples.

Results

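The genes of endothelial and mural cells were followed through 2 spatial transcriptomic sections of macaque posterior eyecup, 9 in all: 5 of endothelial cells (PLVAP, PECAM1, VWF, ENG and ACKR1) and 4 of mural cells (RGS5, ACTA2, MYH11 and TAGLN). They were chosen by symbol, and each matched 1 of the 26533 features of the reference. In NHP1 all 9 had a UMI in tissue, among 13804 genes that did, and in NHP2 8 of the 9 did, among 12542. The question asked of them was how the vessels of the choroid compare with those of the retina.

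Each section came from a 4 mm full-thickness punch of a male rhesus macaque, aged 5 years (NHP1) or 6 years (NHP2), 12 weeks after subretinal gene therapy. Both punches lay outside the injected blebs of the right eye, so no group in these data is from an animal without treatment. The right eye of NHP1 had received AAV2-CAG-hRPE65, whose CAG promoter is active in most cell types. That of NHP2 had received AAV8-GRK1-hRPGRco and AAV8-GRK1-mScarlet in blebs of their own, with the photoreceptor promoter GRK1. Both eyes had also received subtenon triamcinolone, a corticosteroid, and neither had been given adalimumab. On the Visium slide each spot of 55 μm captured polyadenylated RNA from a section of 10 μm, and each molecule was counted once through its unique molecular identifier (UMI). A spot can hold a vessel, its surroundings and part of several other cells. There was 1 section per animal, so animal and section cannot be told apart, no p-value was computed, and the intervals given in parentheses are exact 95% intervals for counting error.

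The eye has 2 vessel beds around the photoreceptors. The retinal vessels run in the inner retina and form a tight barrier, while the choroid lies behind the retinal pigment epithelium (RPE) and holds large vessels and a fenestrated capillary sheet, the choriocapillaris. Endothelial cells line both, pericytes wrap the capillaries, and smooth muscle cells form the walls of arteries and arterioles. PLVAP makes the diaphragms of fenestrated endothelium, PECAM1 is a junctional adhesion molecule, VWF is the clotting factor stored in endothelial granules, ENG (endoglin) is a co-receptor of the TGF-beta family, and ACKR1 is a chemokine-binding receptor known from venular endothelium. RGS5 is a pericyte regulator of G protein signalling, ACTA2 and MYH11 are the actin and the myosin heavy chain of smooth muscle, and TAGLN is an actin-binding protein of smooth muscle that fibroblasts also make.

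NHP1 had 1484784 UMIs in 534 tissue spots and NHP2 805726 UMIs in 470, with medians of 1473.5 and 370.5 UMIs per spot. Spots were grouped by expression without the members and the other vessel genes of fixed lists, and regions were named by marker genes. Vessel genes outside those lists stayed in the grouping. In NHP1, 166 spots were inner retina-like, 147 photoreceptor layer-like and 123 sclera-like. A further 71 spots of NHP1, with 135869 UMIs, formed a region led by genes such as PAX3, MLANA, EDN3 and PMEL. CD93, a gene of endothelial and myeloid cells outside the lists, was also among its 10 leading genes. In that region 10 RPE markers and 11 choroid markers were raised together. Of its 10 leading genes, only MLANA and PMEL were region markers, both of the choroid and not of the RPE. By the naming rule the region therefore stayed unnamed. In NHP2, 34 spots were inner retina-like, 186 sclera-like and 44 choroid-like. The choroid-like spots were mixed, with 7 choroid and 8 sclera markers raised. Their sclera markers summed to 249.0 UMIs per 10000 and their choroid markers to 105.0, against 650.2 and 34.2 in the sclera-like spots. The choroid-like spots of NHP2 and another 55 spots, led by EDN3, also had PMEL among their 10 leading genes. These 99 spots of NHP2, with 32217 UMIs, and the 71 of NHP1 are called PMEL-led below, after the melanosome protein of the RPE and of choroidal melanocytes. The PMEL-led grouping and the comparisons that use it were chosen after the data were seen. A region led by SLC39A12, with photoreceptor and RPE markers together, held 27 spots in NHP1 and 37 in NHP2. In NHP2 a further 109 shallow spots stayed unnamed, and no photoreceptor layer-like region was named.

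Because the regions differ in depth, levels are given as UMIs per 10000 UMIs of the same region. A spot of the inner retina-like regions held a median of 1763 UMIs in NHP1 and 8098.5 in NHP2, against 1930 and 263 in the PMEL-led regions. A level per 10000 UMIs is a share of RNA. In sections, fewer cells of a type and less RNA per cell cannot be told apart.

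Among the endothelial genes, VWF and ENG had the clearest outer pattern. VWF had 161 UMIs in the tissue of NHP1, in 94 spots, and 101 UMIs in that of NHP2, in 66 spots. In NHP1 VWF was at 6.26 UMIs per 10000 (5.00 to 7.74) in the PMEL-led region, 0.684 (0.505 to 0.907) in the inner retina-like regions, 0.596 (0.219 to 1.30) in the sclera-like region and 0.330 (0.192 to 0.529) in the photoreceptor layer-like regions. In NHP2 VWF was at 6.21 (3.79 to 9.59) in the PMEL-led regions, 2.22 (1.53 to 3.097) among sclera-like spots and 0.514 (0.322 to 0.778) among inner retina-like ones. The PMEL-led level was the highest of these in both sections, with an interval apart from all of the others, and the 2 sections had nearly the same level there. The ratio of PMEL-led to inner retina-like was 9.14 (6.34 to 13.3) in NHP1 and 12.1 (6.25 to 23.2) in NHP2.

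ENG was also highest in the PMEL-led regions. It had 117 UMIs in NHP1 and 88 in NHP2. In NHP1 it stood at 5.59 per 10000 (4.41 to 7.001) in the PMEL-led region, 1.49 (0.833 to 2.46) in the sclera-like region, 0.200 (0.109 to 0.335) in the inner retina-like regions and 0.155 (0.0671 to 0.306) in the photoreceptor layer-like regions. In NHP2 the levels were 5.90 (3.55 to 9.21), 3.13 (2.31 to 4.15) and 0.0935 (0.0255 to 0.239) in the PMEL-led, sclera-like and inner retina-like regions. Only 14 of the 117 UMIs of NHP1 and 4 of the 88 of NHP2 lay in the inner retina-like regions, so the ratios of 28.0 (15.7 to 53.7) and 63.1 (21.0 to 255.1) rest on few retinal UMIs. In NHP2 the PMEL-led and sclera-like intervals of ENG overlapped. Their ratio was 1.88 (1.05 to 3.27) per 10000 UMIs and 0.744 (0.413 to 1.29) per spot.

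**Figure D1:**
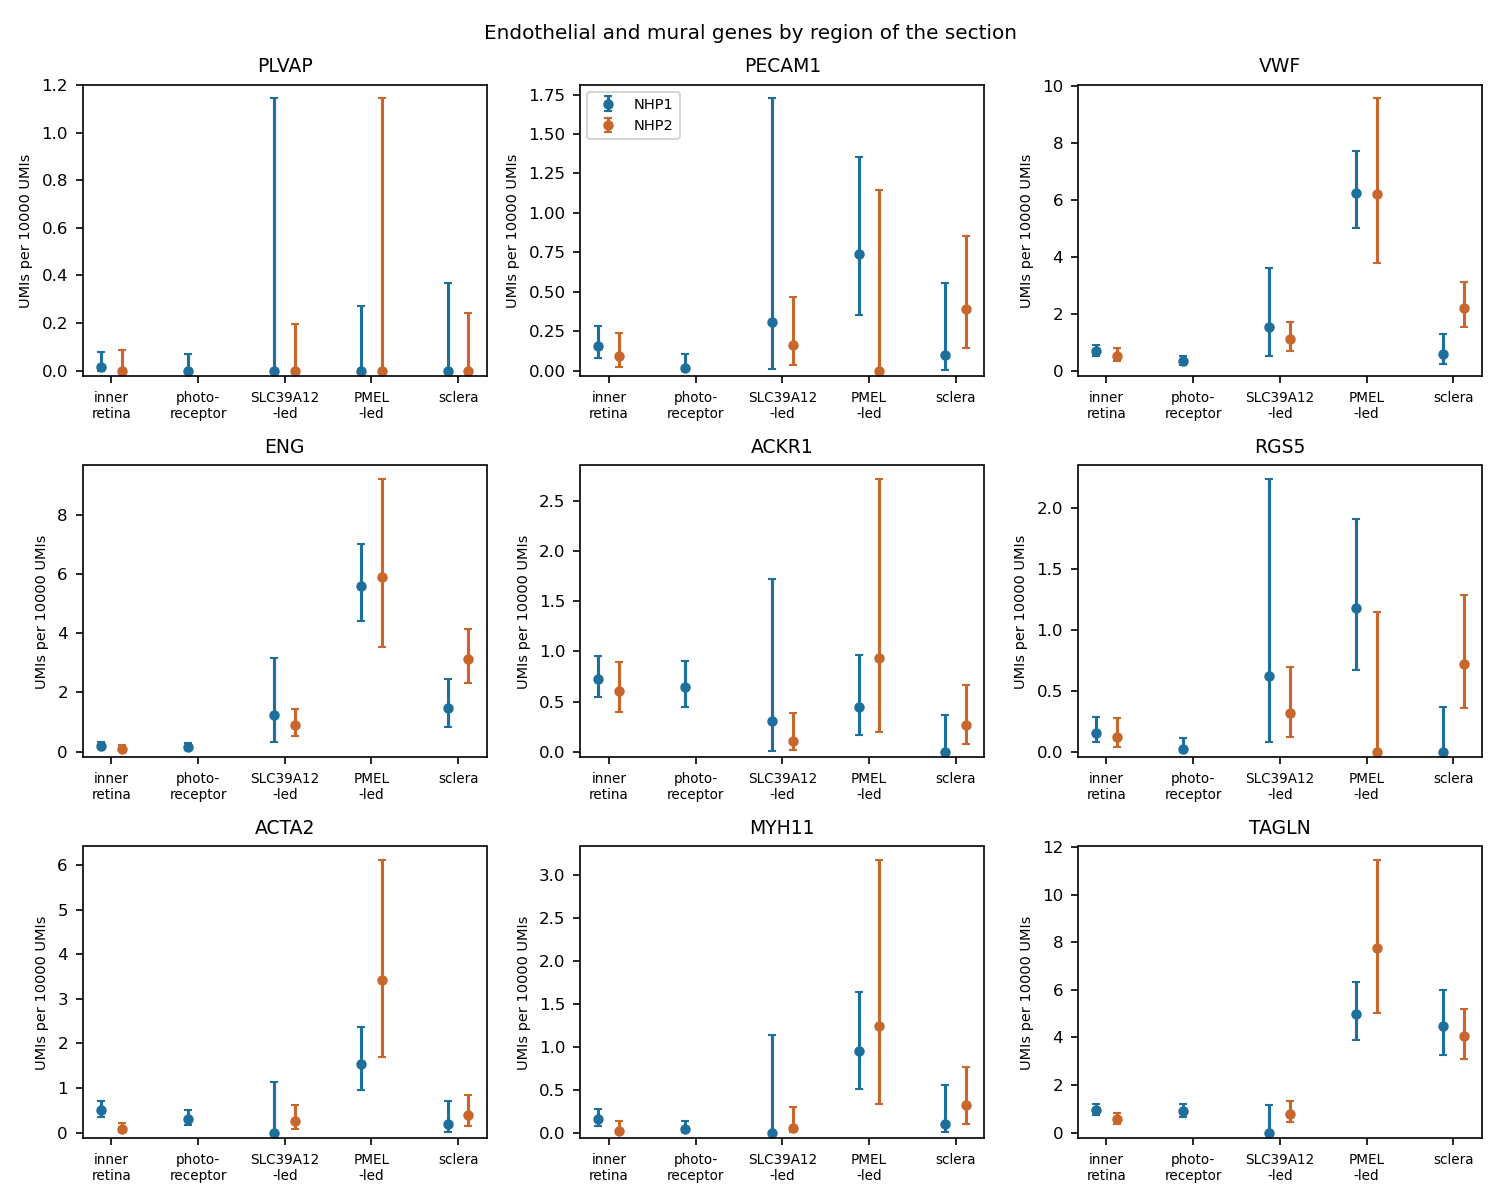
Level of each gene as UMIs per 10000 UMIs in 5 regions, for NHP1 and NHP2 (no photoreceptor layer-like region was named in NHP2). Points are sums over the spots of a region and bars exact 95% Poisson intervals. VWF and ENG peak in the PMEL-led regions of both sections, TAGLN is high in PMEL-led and sclera-like regions, and the intervals of ACKR1 overlap between PMEL-led and inner retina-like regions.

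PECAM1 was sparse, with 24 UMIs in NHP1 and 13 in NHP2, nearly all of them alone in their spot. In NHP1 it was at 0.736 per 10000 (0.353 to 1.35) in the PMEL-led region and 0.157 (0.0783 to 0.281) in the inner retina-like regions, a ratio of 4.69 (1.79 to 12.2). In NHP2 it had 0 UMIs in the PMEL-led regions, which allows up to 0.931 per 10000, against 4 UMIs in the inner retina-like region, so that no direction was detectable at this depth.

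PLVAP was at the floor of detection. A single PLVAP UMI was counted in the tissue of NHP1, in an inner retina-like spot of 10812 UMIs, and 0 in that of NHP2. In the PMEL-led regions its count was 0, and such a count leaves room for at most 0.221 (NHP1) and 0.931 (NHP2) UMIs per 10000. Spots off the tissue also held 0 PLVAP UMIs in both sections. In the whole tissue the count of 0 in NHP2 allows up to 0.0372 per 10000. PLVAP therefore gave no comparison of fenestrated vessels with the others. Some other genes that define vessel cells were at 0 as well: CDH5, the cadherin of endothelial junctions, had 0 UMIs in both sections, and so did PDGFB and ANGPT2.

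ACKR1 did not show the outer excess of VWF and ENG. It had 91 UMIs in the tissue of NHP1 and 35 in that of NHP2, and 51 and 26 of them lay in inner retina-like spots. In NHP1 its level was 0.727 per 10000 (0.541 to 0.956) in the inner retina-like regions, 0.641 (0.442 to 0.901) in the photoreceptor layer-like regions and 0.442 (0.162 to 0.961) in the PMEL-led region. The sclera-like region of NHP1 had 0 ACKR1 UMIs, which allows up to 0.298 per 10000. In NHP2 ACKR1 was at 0.607 (0.397 to 0.890) in the inner retina-like region, 0.931 (0.192 to 2.72) in the PMEL-led regions, from 3 UMIs, and 0.261 (0.0710 to 0.668) among sclera-like spots. Neighbours in this order had overlapping intervals, and the ratio of PMEL-led to inner retina-like was 0.607 (0.213 to 1.42) in NHP1 and 1.53 (0.297 to 5.00) in NHP2. Per spot, the inner retina-like side was higher in both, with ratios of 0.275 (0.0965 to 0.641) and 0.0396 (0.00768 to 0.129). The spot with the most ACKR1 UMIs was inner retina-like in each section, with 7 UMIs in NHP1 and 8 in NHP2. Of the spots with at least 2 ACKR1 UMIs, 9 of 16 were inner retina-like in NHP1 and 6 of 6 in NHP2.

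The position of ACKR1 in the genome bears on how its UMIs can be assigned. In the RefSeq annotation of Mmul_10, ACKR1 lies on the minus strand at chr1:91758653-91761697, with 3 exons. CADM3, a neuronal cell adhesion gene, ends on the same strand at chr1:91761763, only 65 bases before ACKR1 starts. The bases between them are shown because they are all that separates the genes. They span chr1:91761698-91761762 of Mmul_10, minus strand, and are written 5′ to 3′ in lower case:
CADM3 to ACKR1: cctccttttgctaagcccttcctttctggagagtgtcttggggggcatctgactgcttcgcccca

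Reads of a CADM3 transcript that ran past its annotated end would fall within ACKR1. CADM3 had 109 UMIs in the inner retina-like regions of NHP1, 56 in the photoreceptor layer-like regions, 5 in the PMEL-led region and 6 in the sclera-like region, or 1.55, 1.09, 0.368 and 0.596 per 10000. In NHP2 it had 60 UMIs in the inner retina-like region, 2 in the PMEL-led and 9 in the sclera-like regions. Across spots with at least 500 UMIs, the correlation of ACKR1 with CADM3 was r = 0.090 in NHP1 (436 spots) and 0.015 in NHP2 (204 spots), on log values that share each spot's depth. The part of CADM3 in the ACKR1 counts was not tested. The annotation used for counting was not among the sources used here, and its gene ends may differ from those of RefSeq. Whether reads of CADM3 were counted under ACKR1 is therefore not known, and the ACKR1 values are uncertain in this respect.

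The mural genes were also higher in the PMEL-led regions, with single spots carrying a larger part of the counts. TAGLN had 227 UMIs in NHP1 and 126 in NHP2. In NHP1 it was at 5.00 per 10000 (3.89 to 6.34) in the PMEL-led region and 4.47 (3.26 to 5.98) in the sclera-like region, which did not differ beyond their counting error, and at 0.955 (0.740 to 1.21) among inner retina-like spots. In NHP2 the same regions had 7.76 (5.02 to 11.5), 4.04 (3.099 to 5.18) and 0.561 (0.359 to 0.834). TAGLN was thus the mural gene with a high sclera-like level in both sections. The sclera markers as a whole, collagens and proteoglycans of fibroblasts among them, summed to 338.3 per 10000 in the sclera-like region of NHP1, 34.0 in its PMEL-led region and 5.69 in its inner retina-like regions. In NHP2 they summed to 650.2, 221.0 and 8.43. The part of fibroblasts in the TAGLN values was not tested.

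ACTA2, MYH11 and RGS5 were low in the sclera-like region of NHP1, with 2, 1 and 0 UMIs against 45 of TAGLN. ACTA2 in NHP1 was at 1.55 per 10000 (0.957 to 2.36) in the PMEL-led region and 0.513 (0.359 to 0.711) in the inner retina-like regions, a ratio of 3.01 (1.67 to 5.30). In NHP2 it was at 3.41 (1.70 to 6.11) and 0.0701 (0.0145 to 0.205), from 11 and 3 UMIs, a ratio of 48.7 (12.9 to 271.9). Of those 11 UMIs, 8 lay in 1 spot, and without the richest spot on each side the ratio was 19.2 (2.20 to 229.7). On the retinal side ACTA2 was lower in NHP2 than in NHP1 by a ratio of 0.137 (0.0269 to 0.432). Of its 36 inner retina-like UMIs in NHP1, 16 lay in 1 spot and 7 in another, and the interval does not cover such clustering.

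MYH11 had 27 UMIs in NHP1 and 12 in NHP2. In NHP1 it was at 0.957 per 10000 (0.509 to 1.64) in the PMEL-led region and 0.157 (0.0783 to 0.281) in the inner retina-like regions, from 13 and 11 UMIs. In NHP2 it had 4 UMIs in the PMEL-led regions, all in 1 spot, and 1 in the inner retina-like region. RGS5 had 16 UMIs in the PMEL-led region of NHP1 and 11 in the inner retina-like regions, a ratio of 7.51 (3.27 to 17.9). In NHP2 its PMEL-led count was 0, which allows up to 0.931 per 10000, while the sclera-like regions had 11 RGS5 UMIs, at 0.717 (0.358 to 1.28), and the inner retina-like region 5, at 0.117 (0.0379 to 0.273). The PMEL-led to sclera-like ratio of RGS5 in NHP2, 0 (0 to 1.90), included 1, so the place of its outer UMIs was not settled at this depth.

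Summed over their genes, the endothelial genes were at 13.03 UMIs per 10000 (11.2 to 15.1) in the PMEL-led region of NHP1 and 1.78 (1.48 to 2.12) in its inner retina-like regions, a ratio of 7.31 (5.78 to 9.27). In NHP2 they were at 13.04 (9.40 to 17.6) and 1.31 (0.988 to 1.70), a ratio of 9.96 (6.51 to 15.1). The mural genes were at 8.68 (7.19 to 10.4) and 1.78 (1.48 to 2.12) in NHP1, a ratio of 4.87 (3.76 to 6.32), and at 12.4 (8.87 to 16.9) and 0.771 (0.531 to 1.08) in NHP2, a ratio of 16.1 (9.90 to 26.4). The planned comparison of the choroid-like spots of NHP2 alone with its inner retina-like region gave 10.6 (6.62 to 16.8) for the endothelial and 19.8 (11.9 to 33.0) for the mural genes. It shares its inner retina-like spots, and 44 of its outer spots, with the PMEL-led comparison.

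The direction in NHP2 depended on the scale. Counted per spot, the endothelial genes of NHP1 were still higher in the PMEL-led region, with 2.49 UMIs per spot against 0.753, and so were the mural genes, with 1.66 against 0.753. In NHP2 the endothelial genes had 0.424 UMIs per PMEL-led spot against 1.65 per inner retina-like spot, and the mural genes 0.404 against 0.971. The per-spot ratios in NHP2 were 0.258 (0.168 to 0.391) and 0.416 (0.256 to 0.681), below 1 where the ratios per 10000 UMIs were above it. ENG, ACTA2 and MYH11 kept per-spot ratios above 1 in NHP2, at 1.63, 1.26 and 1.37, each with an interval that included 1.

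**Figure D2:**
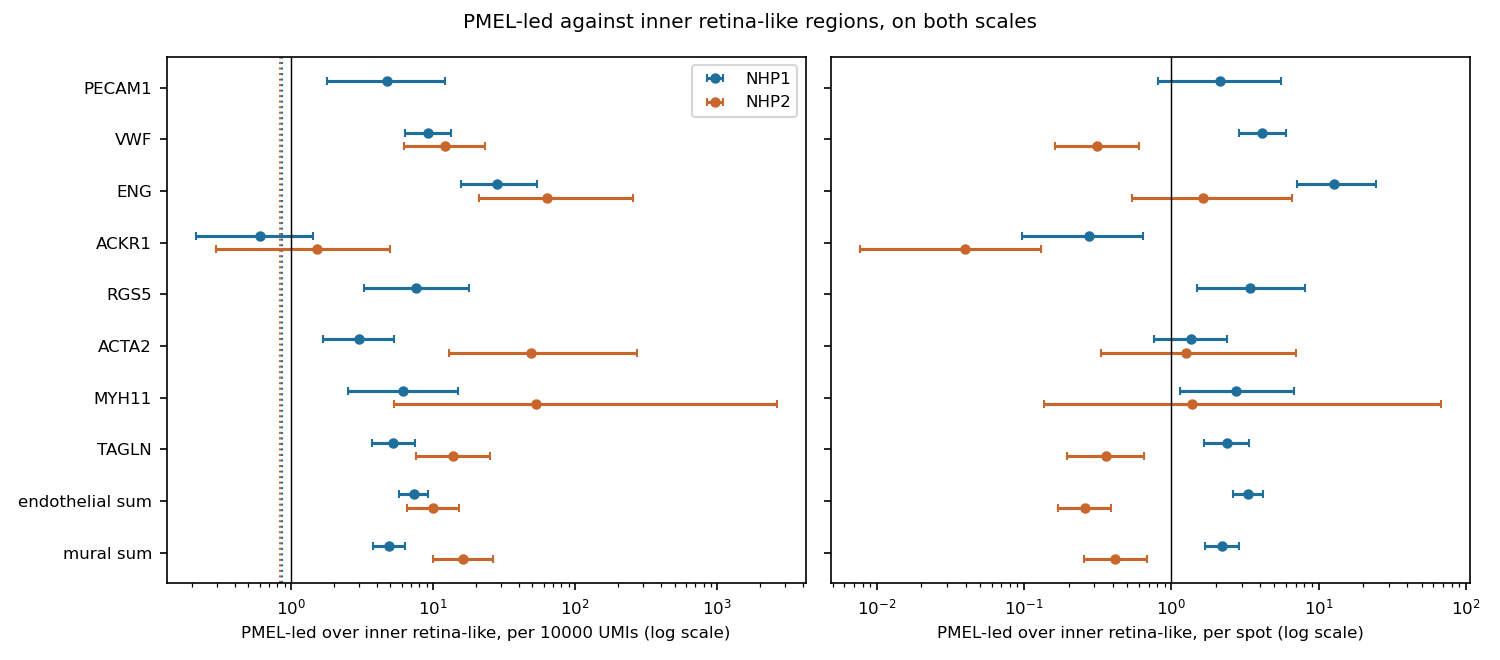
Ratio of PMEL-led to inner retina-like regions for each gene with a UMI on the PMEL-led side, and for the 2 sums, on log axes, per 10000 UMIs (left) and per spot (right). Bars are exact 95% intervals, the black line marks equal levels and dotted lines the median of all genes. All points but ACKR1 of NHP1 lie right of the black line on the left, while on the right several of NHP2 lie left of it.

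Against all genes, the outer excess of the members can be read as follows. In NHP1, 14.4% of the 8143 genes with at least 10 UMIs over both regions were at least 2 times higher per 10000 UMIs in the PMEL-led region than in the inner retina-like regions, and 24.2% were at most 0.5 times as high. Of the 9 members, 8 reached 10 UMIs, and 7 of these were at least 2 times higher and 0 at most 0.5 times as high. Their median ratio was 5.67, beside 0.860 over all genes. In NHP2 the shares were 17.8% and 33.7% of 6753 genes, and of 5 members with 10 UMIs, 4 were at least 2 times higher (VWF, ENG, ACTA2 and TAGLN) and 0 at most 0.5 times as high. The other 4 members of NHP2 had 0 to 5 UMIs over both regions, too few to enter, and a member can reach 10 UMIs because it is high on 1 side. For the choroid-like spots alone the share of all genes was 18.4%, and all 5 members that entered were at least 2 times higher, among them ACKR1 with 3 and 26 UMIs and an interval that included 1 (0.429 to 7.23).

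The comparison planned for both sections took outer coats as the named RPE-like, choroid-like and sclera-like regions. Neural retina was the inner retina-like and photoreceptor layer-like regions, of which NHP2 had only the inner retina-like one. In NHP1, where only the sclera-like region was on the outer side, the contrast was smaller than for the PMEL-led region. There the ratio was 1.44 (0.883 to 2.25) for the endothelial genes, an interval that included 1, and 3.03 (2.16 to 4.18) for the mural genes. Of 8 members that entered, 2 were at least 2 times higher (ENG and TAGLN), beside 12.3% of all genes, and 3 at most 0.5 times as high (ACKR1, RGS5 and ACTA2, with 0, 0 and 2 outer UMIs), beside 27.6% of all genes. Without TAGLN the mural ratio of NHP1 was 0.470 (0.0949 to 1.43), from 3 outer UMIs. In NHP2 the ratios were 5.35 (3.87 to 7.48) and 8.71 (5.88 to 13.2), and 7 of 8 members were at least 2 times higher, beside 17.0% of all genes. Of these 7, only PECAM1, with 6 outer and 4 retinal UMIs, had an interval that included 1 (0.867 to 17.6). Members can enter because they are high on 1 side, as MYH11 did with 9 outer UMIs and 1 retinal UMI. The count therefore does not test the members against the share of all genes. Red cell RNA moved with the region in part: HBA, a haemoglobin alpha gene, was at 7.51 per 10000 in the PMEL-led region of NHP1 against 0.813 in its inner retina-like regions, and in NHP2 at 2.15 in the sclera-like, 0.931 in the PMEL-led and 0.0234 in the inner retina-like regions, from 33, 3 and 1 UMIs. The part of blood in the members' levels was not tested.

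Distance from the neural retina gave a view without the PMEL-led grouping, though neural retina spots were named from the same grouping of spots by expression. In NHP2 they were the inner retina-like spots alone, so equal distances need not be equal depths in the 2 sections. In NHP1 the endothelial genes went from 1.51 UMIs per 10000 (1.30 to 1.75) in neural retina spots to 6.28 (4.95 to 7.85) in other tissue 1 spot spacing away, 7.69 (5.89 to 9.85) at 2 and 12.1 (8.47 to 16.7) at 3 spacings. Beyond that they were at 11.4 (6.97 to 17.6) up to 5 spacings and 8.21 (4.59 to 13.5) farther out. The intervals from 2 spacings outward overlapped. In NHP2 they were at 1.52 (0.963 to 2.28) at 1 spacing, 10.9 (7.18 to 15.9) at 2 and 5.76 (3.36 to 9.22) at 3 spacings. Farther out they were at 4.85 (3.25 to 6.97) up to 5 spacings and 7.57 (6.05 to 9.36) beyond, the latter over 285 spots. Of the 35 spots in the first step of NHP2, 21 were of the SLC39A12-led region, which has photoreceptor markers. The mural genes were highest at 3 spacings in both sections, with 11.1 (7.63 to 15.6) for NHP1, which overlapped its neighbours, and 13.6 (9.68 to 18.5) for NHP2. The interval of NHP2 overlapped that at 2 spacings, where the level was 7.27 (4.31 to 11.5). In NHP2 17 of the 40 mural UMIs at that distance lay in a single spot.

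**Figure D3:**
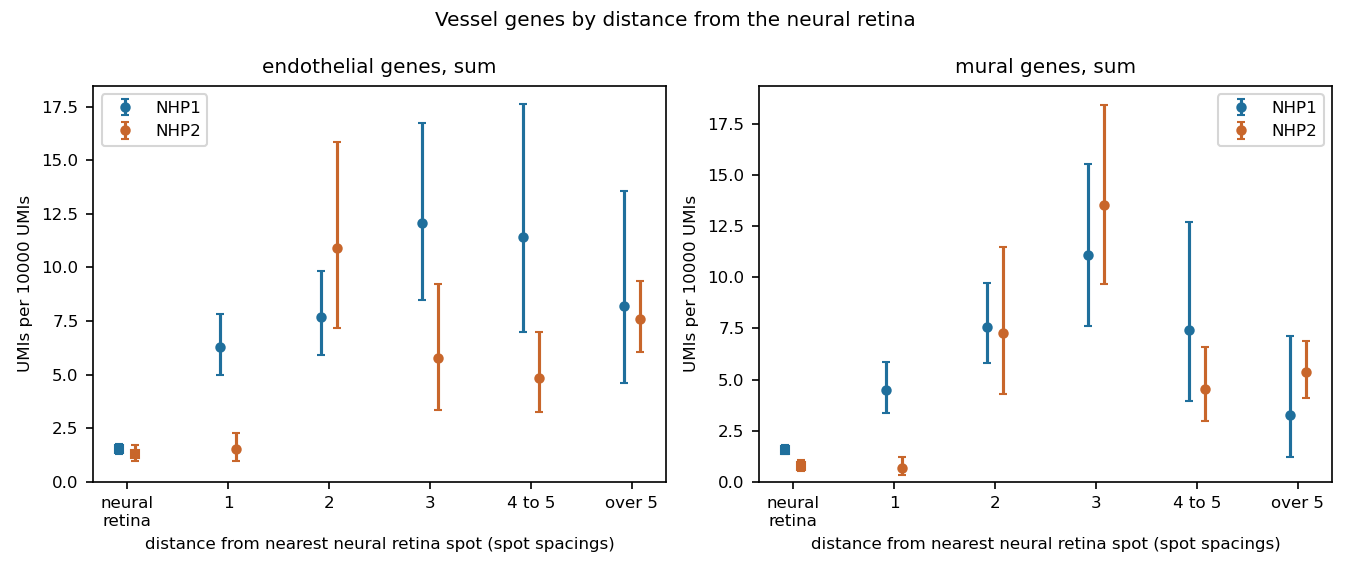
Summed endothelial (left) and mural (right) genes as UMIs per 10000 UMIs in neural retina spots (squares) and in other tissue spots by distance to the nearest neural retina spot (circles). Bars are exact 95% Poisson intervals for counting error. In both sections the mural level is highest at 3 spacings, 11.1 in NHP1 and 13.6 in NHP2, with intervals that overlap those at 2 spacings. In NHP2 17 of the 40 mural UMIs at 3 spacings lie in a single spot. Neural retina spots of NHP2 are inner retina-like only.

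Part of the smooth muscle UMIs gathered in a few spots. In NHP1 1 inner retina-like spot of 9265 UMIs held 16 ACTA2, 6 MYH11, 17 TAGLN and 3 RGS5 UMIs, 42 in all or 11.7% of the mural UMIs of the section, and its 6 neighbours held 28 more. A second inner retina-like spot of 5270 UMIs held 7 ACTA2 and 7 TAGLN UMIs. In the PMEL-led region of NHP1, 2 spots of 3751 and 3213 UMIs held 20 and 11 mural UMIs, among them 5 MYH11 UMIs each, and 10 and 7 of their UMIs were of VWF and ENG together. In NHP2, a choroid-like spot of 754 UMIs held 8 ACTA2, 4 MYH11 and 5 TAGLN UMIs, and 1 ENG UMI.

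Summed over their genes, endothelial UMIs were spread more evenly. The spot richest in endothelial UMIs held 3.30% of those of NHP1 and 4.64% of those of NHP2, against 11.7% and 9.04% for the mural genes. In NHP1 2 PMEL-led spots tied at 13 endothelial UMIs. Of these, the spot of 1485 UMIs held 12 of VWF, 1 of RGS5 and 0 of ACTA2, MYH11 and TAGLN. For MYH11, 3 spots held 59.3% of its UMIs in NHP1 and 58.3% in NHP2, and for ENG 11.1% and 10.2%. Leaving out the richest spot on each side moved the mural PMEL-led ratio to 6.19 (4.57 to 8.39) in NHP1 and 10.9 (5.97 to 19.7) in NHP2, and that of the choroid-like spots to 11.8 (6.02 to 22.4).

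**Figure D4:**
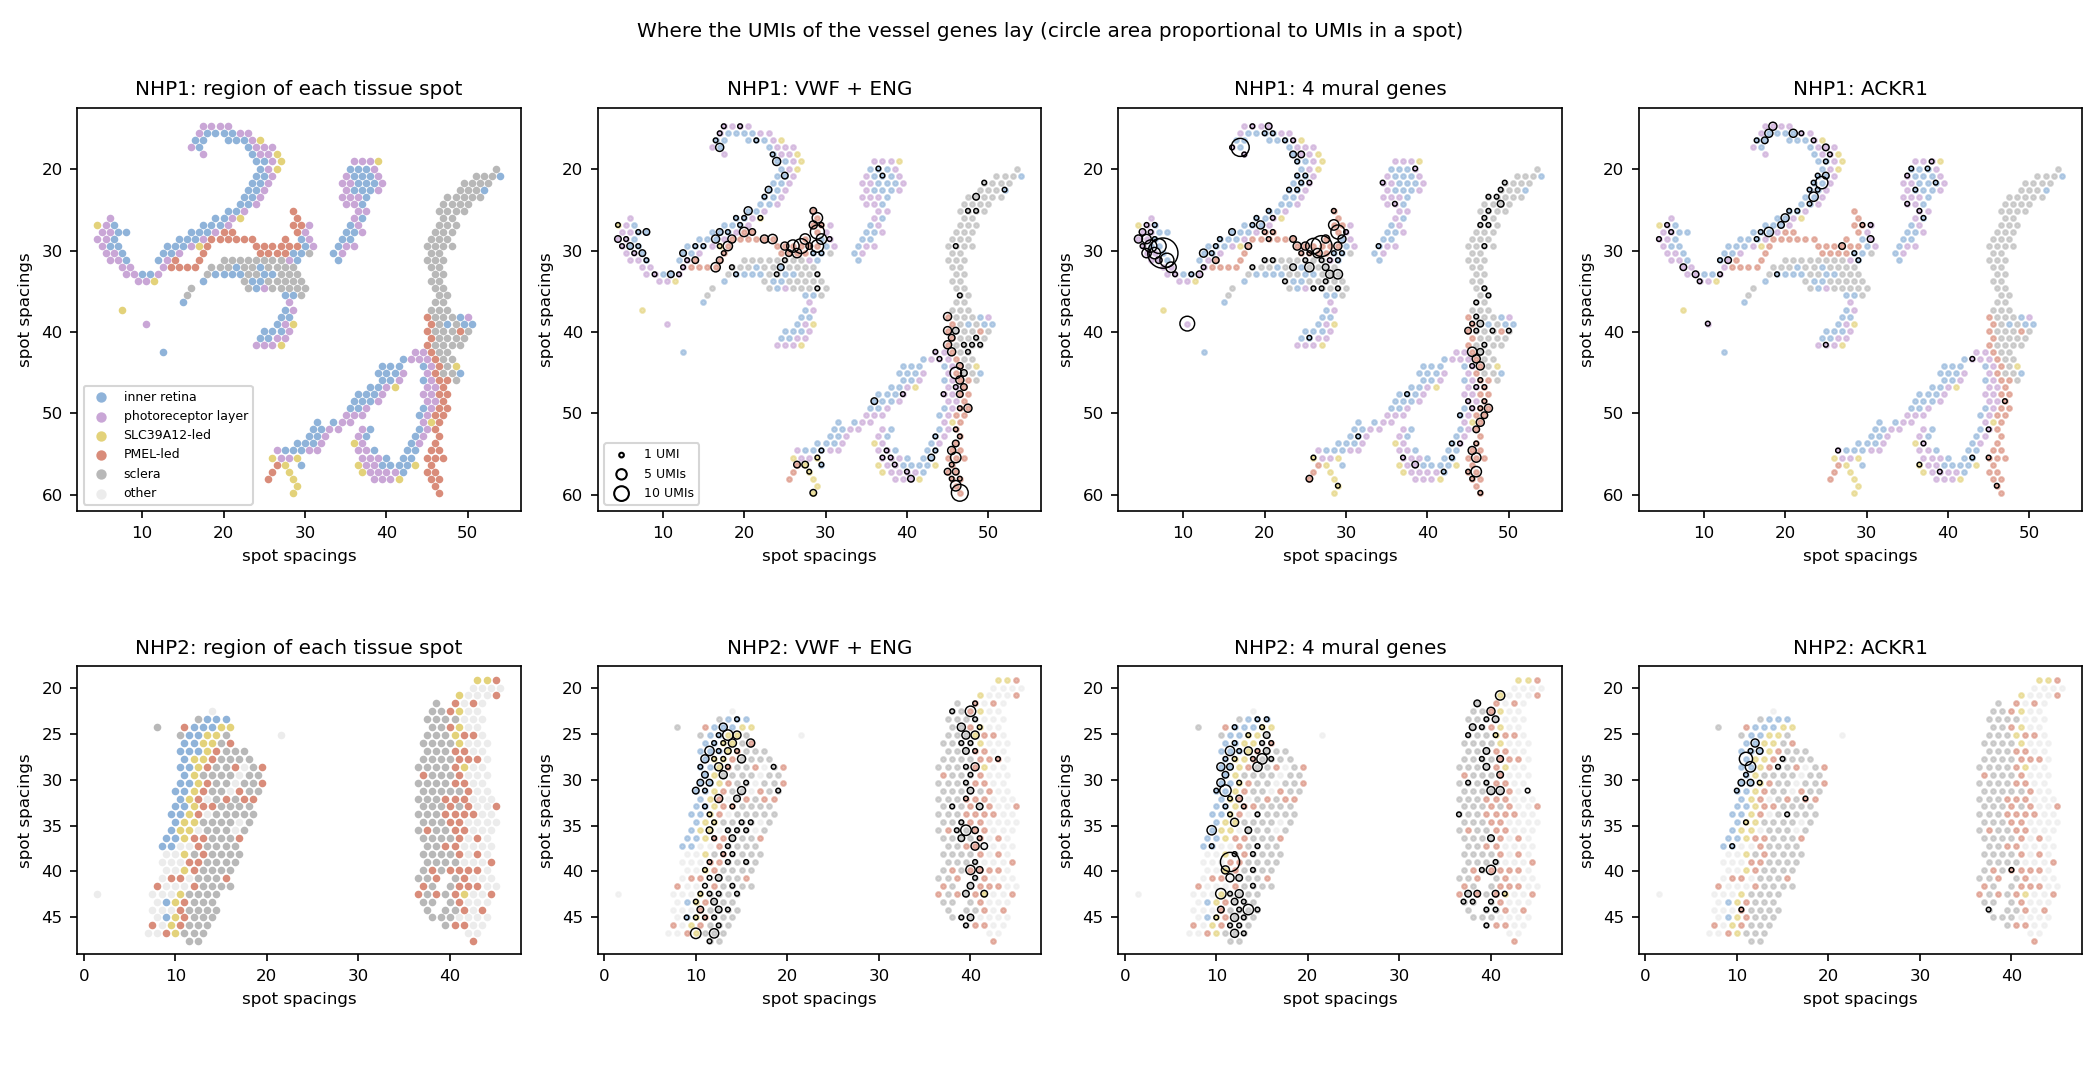
Tissue spots of both sections coloured by region, with open circles whose area is proportional to the UMIs of VWF and ENG, of the 4 mural genes and of ACKR1 in each spot; axes are in spot spacings. The spot with the most mural UMIs in NHP1 held 42 and is inner retina-like, as is the richest ACKR1 spot of each section.

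Which members shared spots followed their cell types in part. Over spots with at least 500 UMIs, ACTA2 and MYH11 had the highest correlation among the members in both sections, with r = 0.54 in NHP1 and 0.45 in NHP2. They were together in 9 spots of NHP1 and 3 of NHP2. VWF and ENG came next in NHP1 at 0.37, with 38 shared spots, and stood at 0.27 in NHP2, with 22. ACKR1 with VWF was at -0.041 in NHP1 and 0.083 in NHP2. These values describe sparse counts of spots that share a library, and the low ones are no finding. The genes whose pattern was most like the endothelial sum in NHP1 were CD74 (r = 0.49), RNASE1 (0.45), EGFL7 (0.40), ENSMMUG00000061959 (0.40) and PMEL (0.39), out of 5243 genes with at least 50 UMIs. In NHP2 they were CD74 (0.37), PMEL (0.35), SDC2 (0.34), APOE (0.31) and CSRP1 (0.28), out of 3277. For the mural sum they were CCL26, MGP, MAMU-E, S100A6 and APOD in NHP1 (0.41 to 0.37) and IGFBP7, CD81, TPM1, GPNMB and FLNA in NHP2 (0.35 to 0.31). Over spots with at least 200 UMIs, 2 of those 5 mural genes of NHP1 stayed among the leading 5. CD74 and PMEL led in both sections for the endothelial sum, and all of these genes had more UMIs per 10000 in the PMEL-led than in the inner retina-like regions. Of the mural ones, MGP, S100A6 and APOD in NHP1 and CD81 in NHP2 were at least as high in the sclera-like regions. APOD of NHP1 was at 98.9 per 10000 there and 74.5 in the PMEL-led region. The rest were higher in the PMEL-led than in the sclera-like regions.

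Other vessel genes did not all lie with VWF and ENG. The counts of each list stand beside the shares of all genes given above, 14.4% higher and 24.2% at most 0.5 times as high in NHP1 and 17.8% and 33.7% in NHP2. Of 17 genes common to endothelial cells, 8 reached 10 UMIs over the PMEL-led and inner retina-like regions of NHP1, 5 were at least 2 times higher in the PMEL-led region and 0 at most 0.5 times as high. In NHP2 5 entered, with 2 higher and 1 lower. EGFL7, a factor secreted by endothelium, was at 5.23 per 10000 in the PMEL-led region and 0.499 in the inner retina-like regions of NHP1, and at 3.41 and 0.374 in NHP2. KDR, the main VEGF receptor and also on the fenestrated list, went the other way, at 2.06 and 3.18 in NHP1 and 0.310 and 2.08 in NHP2. CLDN5, a tight junction protein of endothelium, was at 1.84 and 1.21 in NHP1 and 2.79 and 1.75 in NHP2. In the photoreceptor layer-like regions of NHP1 CLDN5 was at 2.06, with 106 of its 231 UMIs. The cells its UMIs came from were not tested.

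Of 12 genes linked with the barrier of retinal and brain vessels, 8 entered in NHP1, with 4 at least 2 times higher in the PMEL-led region and 2 at most 0.5 times as high, and in NHP2 5 entered, with 1 and 1. SLC2A1, the glucose transporter of barrier endothelium that RPE cells also use, had ratios of 0.654 in NHP1 and 0.762 in NHP2, and TFRC, the transferrin receptor, 0.498 and 0.283. The interval of SLC2A1 lay below 1 in NHP1 only (0.506 to 0.834), and those of TFRC included 1. FOXF2, a transcription factor of vessel development, had ratios of 10.3 and 53.1, the latter against 2 retinal UMIs. Of the 5 genes on the fenestrated capillary list, CA4, a carbonic anhydrase of the choriocapillaris, had 13 UMIs in the PMEL-led region of NHP1 against 2 in the inner retina-like regions, while its count in NHP2 was 0 in both. RGCC, also on that list, had PMEL-led ratios of 3.79 (1.57 to 8.82) in NHP1 and 3.32 in NHP2, the latter from 1 and 4 UMIs.

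Among pericyte genes, PDGFRB, a receptor that fibroblasts also carry, was at 2.50 per 10000 in the PMEL-led, 2.48 in the sclera-like and 0.499 in the inner retina-like regions of NHP1, and at 1.55, 4.43 and 0.374 in NHP2. COX4I2 and HIGD1B, both known from pericytes, lay mostly in the retina by count: 40 of 63 COX4I2 and 23 of 34 HIGD1B UMIs of NHP1 lay in inner retina-like spots, as did 15 of 20 and 16 of 16 in NHP2. In NHP1 their PMEL-led ratios were 0.903 and 0.898, and in NHP2 their PMEL-led counts were 0, which allows up to 0.931 per 10000, above their inner retina-like levels of 0.350 and 0.374. Of 10 pericyte genes, 4 entered in each section, with 2 at least 2 times higher in each. In NHP2 COX4I2 and HIGD1B count as at most 0.5 times as high through these counts of 0, with intervals of the ratio that included 1. Of 14 smooth muscle genes, 4 entered in NHP1, with 2 higher and 1 lower, and 3 in NHP2, all higher. TPM2, a tropomyosin, had ratios of 8.42 and 66.4, the second against 2 retinal UMIs, while SMTN, a smooth muscle cytoskeletal protein, had 0.369 and 2.95, from 3 and 2 PMEL-led UMIs. MCAM, an adhesion molecule of vessel walls, had 0.881 and 9.96. In NHP1 GJA4, a gap junction gene of arterial endothelium, had a ratio of 4.42 (1.87 to 10.3), FBLN5, an elastic fibre protein, 5.16 from 6 UMIs a side, and HEY1, a Notch target, 0.645 from 2 and 16. Of the venous and adhesion genes, ICAM1 had 26 UMIs over both sections, VCAM1 20 and NR2F2 10.

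Of 13 ligands and receptors of vessel growth, 3 entered in each section, with 2 at least 2 times higher in the PMEL-led regions and 0 at most 0.5 times as high in each. VEGFA, the main endothelial growth factor, was at 1.57 per 10000 in the inner retina-like and 0.957 in the PMEL-led regions of NHP1, and at 1.45 and 0.931 in NHP2, with intervals of the ratio that included 1. TGFBR2, the TGF-beta receptor, was higher on the outer side, with PMEL-led ratios of 15.5 in NHP1 and 14.9 in NHP2. ANGPT1, the ligand of the endothelial receptor TEK, had ratios of 11.2 and 17.7 from 3 to 13 UMIs a side. Markers of lymphatic vessels were near the floor except PDPN, which RPE and fibroblasts can also express. Of the rest, PROX1, also a gene of retinal neurons, had 7 UMIs over both sections, FLT4 5, RELN 3 and CCL21 0. The 6 white cell genes of the list gave no more than 12 UMIs each, with ITGAM highest. White cells were not looked at beyond that list. CD74, a gene of antigen presentation outside it, was at 15.8 per 10000 in the PMEL-led region of NHP1 and 15.2 in those of NHP2.

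Counts off the tissue set the background. Relative to all UMIs the members were about as frequent off tissue as in it: the endothelial genes were at 2.70 per 10000 (2.27 to 3.18) off tissue and 2.65 in tissue in NHP1, and the mural genes at 2.08 (1.71 to 2.51) and 2.42. In NHP2 they were at 3.77 (2.53 to 5.42) and 2.94, and 1.30 (0.624 to 2.39) and 2.33. The off-tissue spots were shallow, with medians of 8 and 4 UMIs, so 0.864% of them held VWF in NHP1 and 0.223% in NHP2, against 17.6% (14.5 to 21.1) and 14.04% (11.0 to 17.5) of tissue spots. With each spot of at least 500 UMIs thinned to 500, which left 436 spots of NHP1 and 204 of NHP2, VWF was in 5.73% and 11.3%, ENG in 5.73% and 14.7%, and TAGLN in 8.94% and 15.7%. The PMEL-led levels of VWF and ENG stood above the off-tissue levels of 0.803 and 0.956 per 10000 in NHP1 and 1.56 and 1.17 in NHP2, with intervals apart. Over the off-tissue spots more than 3 spacings from tissue, VWF of NHP2 was at 3.39 (1.24 to 7.37), from 6 UMIs, and then overlapped its PMEL-led interval. The inner retina-like levels of VWF, ENG and TAGLN did not exceed their off-tissue levels in either section. Those of ACKR1, 0.727 and 0.607, did not stand above its off-tissue levels of 0.612 (0.418 to 0.864) in NHP1 and 0.780 (0.286 to 1.70) in NHP2 beyond counting error.

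In the authors' spatial statistic, Moran's I, which rises when neighbouring spots have like values, VWF ranked 259th of 13804 genes in NHP1 (0.137), MYH11 391st (0.109), ACTA2 456th (0.101) and ENG 488th (0.0983). TAGLN ranked 853rd there and 352nd of 12542 in NHP2 (0.0953). VWF, RGS5 and ENG of NHP2 ranked 1711th, 1727th and 1783rd, while ACKR1 was 2354th in NHP1 and 10483rd in NHP2 (-0.0057). The sections differed in depth, which the ranks share.

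Between the animals, the summed levels in tissue were alike within counting error, with ratios of NHP2 to NHP1 of 1.11 (0.940 to 1.31) for the endothelial and 0.965 (0.805 to 1.15) for the mural genes. Within regions they were not all alike. In the PMEL-led regions the endothelial ratio was 1.001 (0.697 to 1.41) and the mural 1.43 (0.973 to 2.06). In the inner retina-like regions the mural genes were lower in NHP2, at 0.433 (0.285 to 0.639). Of their 125 UMIs there in NHP1, 42 lay in 1 spot, and the interval does not cover such clustering. In the sclera-like regions the endothelial genes were higher in NHP2, at 2.75 (1.71 to 4.59), with VWF at 3.72 (1.54 to 10.8) and ENG at 2.102 (1.16 to 4.04).

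In the RefSeq annotation of Mmul_10, ENG, RGS5, MYH11 and TAGLN overlap annotated genes on the opposite strand and VWF a pseudogene, and how the counting treated reads from such overlaps is not given in the sources used here.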

How the data were processed

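The data were 2 sections, 1 per animal, and no other sample of the study was used here. Per the labels, the authors ran Space Ranger 2.1.0 against Mmul_10 with transgenes added and deposited raw UMI counts for each gene in each spot, spot positions, tissue marks and Moran's I per gene, a score from Space Ranger. The p-value, adjusted p-value and average count columns beside it were not used. Its gene totals matched the tissue sums exactly for 13804 genes of NHP1 and 12542 of NHP2. The labels call the samples fresh frozen and elsewhere fixed in paraformaldehyde. The sections shared 67 tissue barcodes, since slides carry a fixed barcode set.

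Members and gene lists were chosen with earlier results of these data known. Of 9855 features without a symbol, 503 were named from a table of gene names. Tissue spots of each section were scaled to 10000 UMIs, log-transformed and grouped with Python 3.11.15, scanpy 1.11.5 and leidenalg 0.10.2 (2000 variable genes, 20 components, 15 neighbours, resolution 1), leaving out 110 vessel and blood genes. A region was named when at least 3 markers of a class had 3 UMIs each and 1.5 times the level elsewhere, unless its 10 leading genes held more markers of another class. No doublet caller was run, since spots hold several cells. Intervals, from scipy 1.17.1, are exact Poisson for levels, Clopper-Pearson for shares and conditional binomial for ratios. They cover counting error only. Where a count was 0, the limit given is that of 3 UMIs. The text names all members, up to 3 genes of each list by UMIs, and the 5 genes most like each sum. CDH5, PDGFB, ANGPT2, FOXF2, RELN, CCL21, CADM3 and CD93 were chosen after their values were seen, as was the PMEL-led grouping. The ratio calculation was tested on simulated data. Alternatives were other groupings, spot minima, scales and totals. A planned search of promoter windows is not reported here.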

Additional observations from a re-analysis of the deposited data

Results flagged for a closer look

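ACKR1 went in opposite directions between PMEL-led and inner retina-like regions in the 2 sections. Its ratio per 10000 UMIs was 0.607 in NHP1, from 6 and 51 UMIs, and 1.53 in NHP2, from 3 and 26 UMIs. Both intervals included 1, and with 1 section per animal the difference was not tested. Per spot, both ratios were below 1.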

How the results depend on the processing

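Counting UMIs per spot in place of per 10000 UMIs changed the most. For outer coats over neural retina, the endothelial ratio became 0.304 in NHP1 and 0.325 in NHP2, and the mural ratio 0.640 and 0.529. For the choroid-like over the inner retina-like region of NHP2 the ratios became 0.428 and 0.796. For PMEL-led over inner retina-like they became 3.31 and 2.21 in NHP1 and 0.258 and 0.416 in NHP2, where VWF fell to 0.312 and TAGLN to 0.358. Assigning spots by marker score, with RPE-like and choroid-like spots in place of PMEL-led ones, gave an endothelial ratio of 4.68 for the outer coats of NHP1, and PMEL-led ratios of 5.20 in NHP1 and 6.34 in NHP2 for the endothelial and 9.44 in NHP2 for the mural genes. Keeping the vessel genes in the grouping gave outer coat ratios in NHP1 of 5.53 for the endothelial and 4.38 for the mural genes. A resolution of 0.5 gave a mural PMEL-led ratio of 3.53 in NHP1. Without the richest spot on each side the mural choroid-like ratio of NHP2 was 11.8. With at least 200 UMIs per spot, or a total without mitochondrial and the 50 most abundant genes, the summed ratios stayed within the main intervals. At 200 UMIs the 5 genes most like each sum kept 5 (endothelial) and 2 (mural) in NHP1 and 4 and 4 in NHP2. With at least 50 UMIs per gene, 9.004% of genes in NHP1 and 8.92% in NHP2 were at least 2 times higher in PMEL-led regions, and 6.11% in the outer coats of NHP1. At a resolution of 0.5 no inner retina-like region of NHP2 was named, and with the vessel genes kept no choroid-like region, so those ratios were not run.

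The PMEL-led comparison, with its values for single genes, and the following alternatives were chosen after seeing the data. Leaving out ACKR1 gave endothelial ratios of 2.66 and 9.42 for the outer coats of NHP1 and NHP2, 17.9 for the choroid-like region, and 11.9 and 17.3 for PMEL-led over inner retina-like. Leaving out TAGLN gave a mural outer coat ratio of 0.470 in NHP1. Counting PMEL-led spots as outer coats gave 5.56 and 4.47 for the endothelial and mural genes of NHP1. Counting the SLC39A12-led region as neural retina kept the outer coat ratios within the main intervals. The causes of the changes above were not tested. No paired analysis was possible because the groups share fewer than 2 replicate numbers. PLVAP, PECAM1, RGS5 and MYH11 had the fewest UMIs of the members in both sections, above all in NHP2. Whether depth or another cause lay behind their low counts was not tested.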
